A study of Drosophila melanogaster with 2 samples.

Results

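The genes described here are 40 cyclins, cyclin-dependent kinases (Cdks) and other regulators of the cell cycle, taken from a list of symbols and all found among the 13968 protein-coding genes on the 7 chromosome arms X, 2L, 2R, 3L, 3R, 4 and Y. Chromatin came from whole embryos of Drosophila melanogaster aged 0 to 24 h, of the strain chm-GFP, a transgenic line with an insertion targeting chameau (chm) that expresses chm fused to eGFP. The chromatin was sonicated, precipitated with an antibody to GFP, although the antibody field of the labels names chm, and sequenced. There were 2 biological replicates of this 1 group, so the listed genes are set beside all protein-coding genes and no treatment or genotype is compared. The labels do not give the promoter of the fusion, and the control experiment they name was not used here. Whole embryos mix all tissues and stages, so strong binding in few cells and weak binding in many cannot be told apart.

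Chameau acetylates histones and belongs to the MYST family, and the human member of its subfamily, HBO1, is known for its part in the licensing of replication origins. Cyclins bind and activate Cdks, phosphatases of the Cdc25 type remove the inhibitory phosphates that Wee1 and Myt1 place on Cdk1, and E2F factors with the retinoblastoma family switch S phase genes on and off. In the fly embryo the first divisions run on maternal products, after which zygotic string (stg) sets the timing of each mitosis, and dacapo (dap) and fizzy-related (fzr) bring epidermal cells out of the cycle.

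The authors' conservative peak list, whose peaks were matched between the replicates and passed an IDR of 0.01, held 4202 peaks. The IDR (irreproducible discovery rate) is low for peaks that rank high in both of 2 sets of peaks. The pooled list, from the reads of both replicates, held 6176, and the lists of replicates 1 and 2 held 3554 and 4106. Every signal below is the peak caller's value from the deposited lists, on a scale that is not given, so values are compared within a list. The lists give no read totals, and the depth behind each peak is unknown. The signals of the 2 replicates come from separate lists, so a mean, SD or difference between them also carries any difference in scale or depth.

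A promoter summit, one lying at most 500 bp from any protein-coding transcript start of the gene, was found at 7 of the 40 genes (17.5%) in the conservative list, beside 16.8% of all protein-coding genes, so the share was close to the background. The 7 genes were CycB, CycE, stg, fzr, dap, E2f1 and Dp. In the list of replicate 1 the count was 9 (22.5%, beside 13.5% of all genes), and in that of replicate 2 it was 10 (25.0%, beside 17.2%). In the pooled list it was 15 (37.5%, beside 21.2%). The pooled list added CycA, CycB3, CycT, Cdk1, Cdk2, Cdk12, aurB and Cks85A, so that 8 of the 40 genes were called in the pooled but not in the conservative list, beside 5.13% of all genes. With the region widened to the whole gene and 2 kb on each side, 18 genes (45.0%) had a conservative summit, beside 29.0% of all genes. These shares were 65.0% beside 35.7% in the pooled list, 45.0% beside 24.4% in replicate 1 and 45.0% beside 29.4% in replicate 2. The regions of the listed genes were somewhat longer than others, with a median of 6922 bp against 6164 bp, and the part of length in these shares was not tested.

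Most genes had a promoter summit of some strength in the ranked lists, which hold peaks before the threshold. The counts were 32 of 40 (80.0%, beside 65.9% of all genes) for the replicate pair, 34 (85.0%, beside 69.5%) for the pooled reads, 33 (82.5%, beside 65.5%) for replicate 1 and 33 (82.5%, beside 67.7%) for replicate 2. In or within 2 kb of the gene they were 36 (beside 80.7%), 38 (beside 83.4%), 39 (beside 84.4%) and 37 (beside 84.4%) in the same order. Ranked signals are given below to show how far a gene lay from the threshold.

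**Figure D1:**
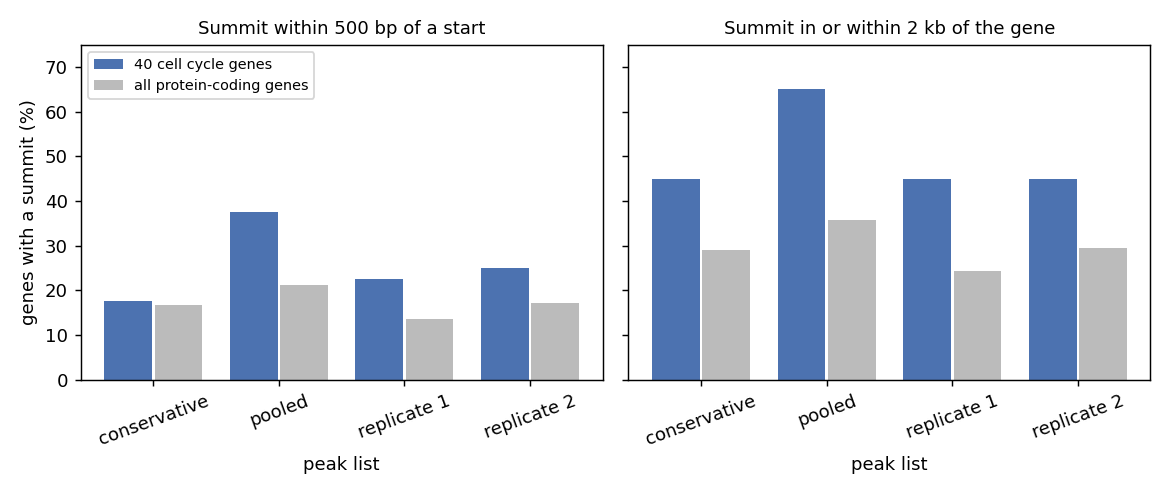
Share of genes (%) with a peak summit in each of the 4 peak lists, within 500 bp of a start (left) or in or within 2 kb of the gene (right), for the 40 cell cycle genes and for all 13968 protein-coding genes. The promoter share of the cell cycle genes is close to the background in the conservative list (17.5% and 16.8%) and stands furthest from it in the pooled list (37.5% and 21.2%).

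The count of annotated starts differed between the genes with and without a conservative promoter summit. The 7 genes had a median of 3 starts and a median length of 5770 bp, and the other 33 a median of 1 start and 2693 bp. A summit was found at 1 of 23 listed genes with 1 start, where 11.9% of all such genes had one, and at 2 of 10 with 2 starts, where 25.5% did. It was found at 3 of 5 with 3 or 4 starts (39.6% of all such genes) and at 1 of 2 with 5 or more (51.1%). The part of this in which genes carried a summit was not tested.

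The sequences below show the bases just upstream of starts at which the results turn, read from the RefSeq sequence of the release 6 assembly, with dm6 coordinates. Each runs 5′ to 3′ on the coding strand and ends at the base before the named gene's own transcript start nearest the summit. At Cdk1 the start of mRpS7 lay nearer the summit, at 180 bp against 220 bp. CycE, stg, fzr and the first start of E2f1 had conservative summits, and Cdk1, CycG and a later start of E2f1 are shown for the differences between lists described further on. Capitals mark matches, on either strand, to GAGAGAG (the GAGA element), to CAGCTG (an E-box core) or to TATAAA (the TATA box), the only motifs of 6 or more letters among those searched that occurred in these stretches. For stg, where a longer transcript places untranslated sequence upstream, only 30 bases are given. The stretches of CycE and of the later start of E2f1 contain the summit. At stg, fzr, the first start of E2f1 and CycG the summit lies downstream of the start, outside the stretch. At Cdk1 it lies upstream of the bases shown. Motifs and base content in those stretches therefore do not describe the bases at the summit.
CycE (chr2L:15748151-15748300, minus strand): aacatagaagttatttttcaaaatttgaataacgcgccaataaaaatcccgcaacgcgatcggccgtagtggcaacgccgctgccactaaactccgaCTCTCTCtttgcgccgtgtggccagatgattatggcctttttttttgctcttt
stg (chr3R:29255326-29255355, minus strand): gtTATAAAaacCAGCTGctcggcatattca
fzr (chrX:4679538-4679687, minus strand): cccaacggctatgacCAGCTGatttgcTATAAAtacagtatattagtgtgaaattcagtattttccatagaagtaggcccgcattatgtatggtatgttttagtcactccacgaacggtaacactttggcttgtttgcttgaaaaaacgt
E2f1, first start (chr3R:21660872-21661021, minus strand): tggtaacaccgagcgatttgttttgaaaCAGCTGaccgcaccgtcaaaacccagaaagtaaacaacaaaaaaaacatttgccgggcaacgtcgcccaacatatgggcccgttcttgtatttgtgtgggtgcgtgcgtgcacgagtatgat
E2f1, later start (chr3R:21633074-21633223, minus strand): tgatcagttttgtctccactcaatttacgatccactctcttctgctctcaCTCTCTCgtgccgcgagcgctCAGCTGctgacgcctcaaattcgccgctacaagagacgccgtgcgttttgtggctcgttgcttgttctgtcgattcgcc
CycG (chr3R:31609816-31609965, minus strand): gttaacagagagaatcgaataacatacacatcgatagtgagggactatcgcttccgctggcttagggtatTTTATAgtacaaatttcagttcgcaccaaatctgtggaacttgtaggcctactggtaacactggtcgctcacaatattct
Cdk1 (chr2L:10386263-10386412, minus strand): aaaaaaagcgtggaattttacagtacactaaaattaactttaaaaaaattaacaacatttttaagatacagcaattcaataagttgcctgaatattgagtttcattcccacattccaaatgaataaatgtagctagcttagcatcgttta
The CAGCTG core is bound by factors of the basic helix-loop-helix family and GAGAGAG by GAGA factor. The stretch before stg carries TATAAA and CAGCTG side by side, and that of Cdk1 is rich in A and T, with 27.3% G and C, and holds none of these motifs.

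Among the cyclins of the cell cycle proper, CycB and CycE had promoter summits in the conservative list. CycB, whose product drives mitosis with Cdk1, had a summit 72 bp upstream of its start (2R, 22806852 to 22807187) with a pooled signal of 109.8, and of 48.98 in replicate 1 and 55.88 in replicate 2 (mean 52.43 ± 4.88, SD, n = 2). Both replicates placed it in their own lists. A second and much stronger peak lay just past the other end of CycB (2R, 22802858 to 22803076), with its summit 3342 bp downstream of the nearest start and a signal of 570.1. It ranked 47 among the 4202 conservative peaks and had signals of 312.9 and 251.7 in replicates 1 and 2. This was the strongest conservative peak in or within 2 kb of any of the 40 genes, and CycB had the nearest protein-coding start. CycE, which with Cdk2 starts S phase, had a summit 39 bp upstream of its first start (2L, 15748021 to 15748356) with a pooled signal of 71.65, rank 3200. Its replicate signals were 32.73 and 39.88, and neither replicate's own list contained it (IDR 0.0209 and 0.0110), while the pair gave an IDR of 0.00548.

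CycA and CycB3, the other mitotic cyclins, each passed in 1 replicate. At CycA the promoter peak (3L, 11833218 to 11833553) had a signal of 53.22 and an IDR of 0.00119 in replicate 1, and 22.72 and 0.176 in replicate 2. CycB3 showed the reverse, with 25.54 (IDR 0.0189) in replicate 1 and 51.31 (IDR 0.000413) in replicate 2. For the replicate pair their IDRs were 0.0132 and 0.0140, just outside the threshold of 0.01. CycD, the partner of Cdk4, had no peak of any rank within 500 bp of its start in any list, and CycJ had only weak ranked peaks, of signal 12.46 and 12.02 in replicates 1 and 2.

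Cdk1 and Cdk2, the catalytic partners of these cyclins, had no conservative promoter summit, but the lists disagreed at Cdk1. Replicate 1 gave a Cdk1 promoter signal of 43.99 (IDR 0.00648) and replicate 2 one of 59.78 (IDR 0.000609), and both lists, and the pooled list with 100.9, contained the peak. The start of mRpS7, a mitochondrial ribosomal protein gene, lay within the same 500 bp. In the ranked list of the replicate pair the same peak was matched to replicate signals of 15.94 and 59.78 and had an IDR of 0.357. The stronger replicate 1 peak, whose summit lay 118 bp away, also overlapped it. Cdk12, a kinase of transcription elongation, had 2 promoter peaks in the pooled list, both within 500 bp of the start of SAK. At the first, 49 bp from the Cdk12 start (signal 63.51), replicate 1 gave 44.16 (IDR 0.00290) and replicate 2 gave 11.77 at the summit, and the pair had an IDR of 0.415. The second lay 96 bp from the SAK start (48.00), with 25.55 in replicate 1 and 33.29 (IDR 0.00700) in replicate 2, whose peak also overlapped the first. The part of the matching in these calls was not tested. At Cdk2 the promoter peak was in the pooled list only (signal 57.78, IDR 0.00958). Replicate 2 gave 36.58 there and replicate 1 had no ranked peak over its summit.

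**Figure D2:**
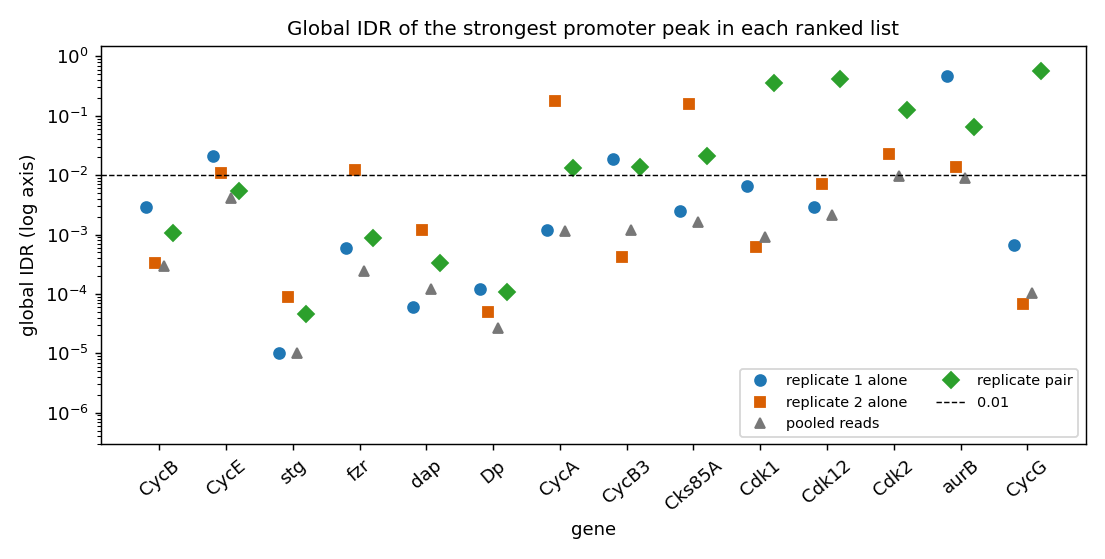
Global IDR (log axis) of the strongest promoter peak of 14 genes, for each replicate alone (the strongest overlapping peak), the pooled reads and the replicate pair, with the threshold of 0.01 as a dashed line; a replicate with no overlapping peak has no point. At Cdk1, Cdk12 and CycG both replicates and the pooled reads lie under the line and the pair lies above it, at 0.357, 0.415 and 0.571. Of these, the replicate 1 points of Cdk1 and CycG and the replicate 2 point of Cdk12 are peaks with summits 118, 130 and 183 bp away.

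Cdk4, which pairs with CycD in growth and cell cycle entry, had 3 conservative summits near it and none within 500 bp of its starts. A summit 622 bp upstream of its first start (2R, 16578680 to 16579015) had a pooled signal of 153.0, with 64.97 and 86.17 in replicates 1 and 2. An intronic summit (2R, 16583877 to 16584212) had 158.8, with 91.52 and 70.43. All 3 peaks were in both replicate lists, and the last, of pooled signal 116.4, lay 154 bp from the start of the ribosomal protein gene RpLP2.

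CycC and Cdk8 of the Mediator kinase module, CycH and Cdk7 of the TFIIH kinase, CycT and Cdk9 of P-TEFb, and CycK with Cdk12 are the cyclins and Cdks of transcription. A promoter summit was found at 0 of these 8 genes in the conservative list, beside 16.8% of all genes, and at 2 of 8, CycT and Cdk12, in the pooled list, beside 21.2%. The CycT peak of the pooled list, 20 bp from a start, had a signal of 50.21, and replicate 2 gave 21.27 there, which was not in its list. The promoter peak that replicate 2 did list was another, 458 bp from a start (36.88, IDR 0.00743), and replicate 1 had no ranked promoter peak. CycC came close in replicate 2 alone, where its signal was 38.02 with an IDR of 0.0119, against 15.46 in replicate 1. Cdk8 had a conservative summit within 2 kb, but at the start of I-2 (signal 63.53). Ranked promoter signals of Cdk7 were 10.10 and 8.302 in replicates 1 and 2, and those of Cdk9 20.50 and 17.75. CycH had a ranked promoter peak in replicate 1 only (26.23), and CycK, like CycD, had none in any list.

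Of the remaining cyclins and Cdks, CycG stood apart. Its strongest promoter peak (3R, 31609602 to 31609937), 45 bp from a start, had a signal of 132.1 in the pooled ranked list, rank 1217 of 118204, with an IDR of 0.000105. Replicate 1 gave 67.59 (IDR 0.00067), at a peak with its summit 130 bp away. Replicate 2 gave 77.87 (IDR 6.66e-05), with its summit 10 bp away. None of the 4 thresholded lists contained it, although each IDR was under the threshold except that of the replicate pair (0.571), where it was matched to signals of 3.715 and 77.87. CycG, known for roles in growth and in meiotic recombination, did have 2 weaker conservative summits, 1 in an intron (signal 60.52) and 1 at the start of the neighbouring gene RpL6 (64.04). Neither replicate's own list contained either of them, and the intronic one was also absent from the pooled list. CycY had 1 conservative summit within 2 kb, 1 bp from a start of crol (signal 101.8), and Cdk5, best known from neurons, had a ranked promoter peak of signal 2.38 in replicate 1 and none in replicate 2.

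Among the Cdc25-type phosphatases, stg had the strongest conservative promoter peak of all 40 genes. Its summit lay 16 bp downstream of a start, in 5′ UTR sequence (3R, 29255220 to 29255403), with a pooled signal of 207.0, rank 440 of 4202. Replicate 1 gave 150.9 and replicate 2 gave 77.63 (mean 114.3 ± 51.9, SD, n = 2), both in their lists. The peak was thus present in both samples, but its signals differed more between them than at any other of the 9 promoter peaks. These signals come from separate lists, with medians of 57.78 in replicate 1 and 50.62 in replicate 2. A second conservative peak (3R, 29251496 to 29251831; signal 84.00) lay past the other end of stg, with 47.40 in replicate 1 and 34.61 in replicate 2, and only the first of these lists contained it. Twine (twe), the Cdc25 of the germline, had only a summit near the starts of EndoGI and PRL-1 (signal 140.6, with 41.12 and 90.28 in the replicates), and its own ranked promoter signals were 18.39 and 16.10.

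The mitotic kinases polo, aurA and aurB had no conservative promoter summit. That of aurB passed in the pooled list (signal 53.01, with 20.44 and 26.19 in replicates 1 and 2). Conservative summits within 2 kb of polo (87.67) and aurB (87.65) lay 33 bp from a start of alphaSnap and 67 bp from a start of Dnz1. Polo's own strongest ranked promoter signals were 38.88 (IDR 0.0101) and 18.32, and those of aurA 21.61 and 21.93.

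Fzr and fzy activate the anaphase-promoting complex (APC/C), which marks cyclins for destruction, and only fzr had promoter peaks past the threshold. The fzr summit (X, 4679259 to 4679594) lay 110 bp downstream of its start, in 5′ UTR sequence, and its signal was 111.6 in the pooled reads, 64.43 in replicate 1 and 47.43 in replicate 2. Replicate 1 placed it in its list, and in replicate 2 its IDR was 0.0120. A stronger peak (signal 280.9, rank 243) lay past the other end of fzr, 347 bp from a start of CG3009. At fzy the ranked promoter signals were 19.37 and 9.620.

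Of the Cdk inhibitors and Cks subunits, dap had a summit in every list. It lay 50 bp downstream of its start (2R, 9712203 to 9712538), and its signal was 112.2 in the pooled reads, 81.11 in replicate 1 and 58.54 in replicate 2 (mean 69.83 ± 16.0, SD, n = 2). Dap is the fly relative of the p21 and p27 inhibitors and acts on CycE with Cdk2. Roughex (rux), an inhibitor of mitotic cyclin activity, had ranked signals of only 21.24 and 11.92. Cks85A passed in replicate 1 (53.71) and not in replicate 2 (20.86 at the same summit), while Cks30A had no ranked promoter peak.

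**Figure D3:**
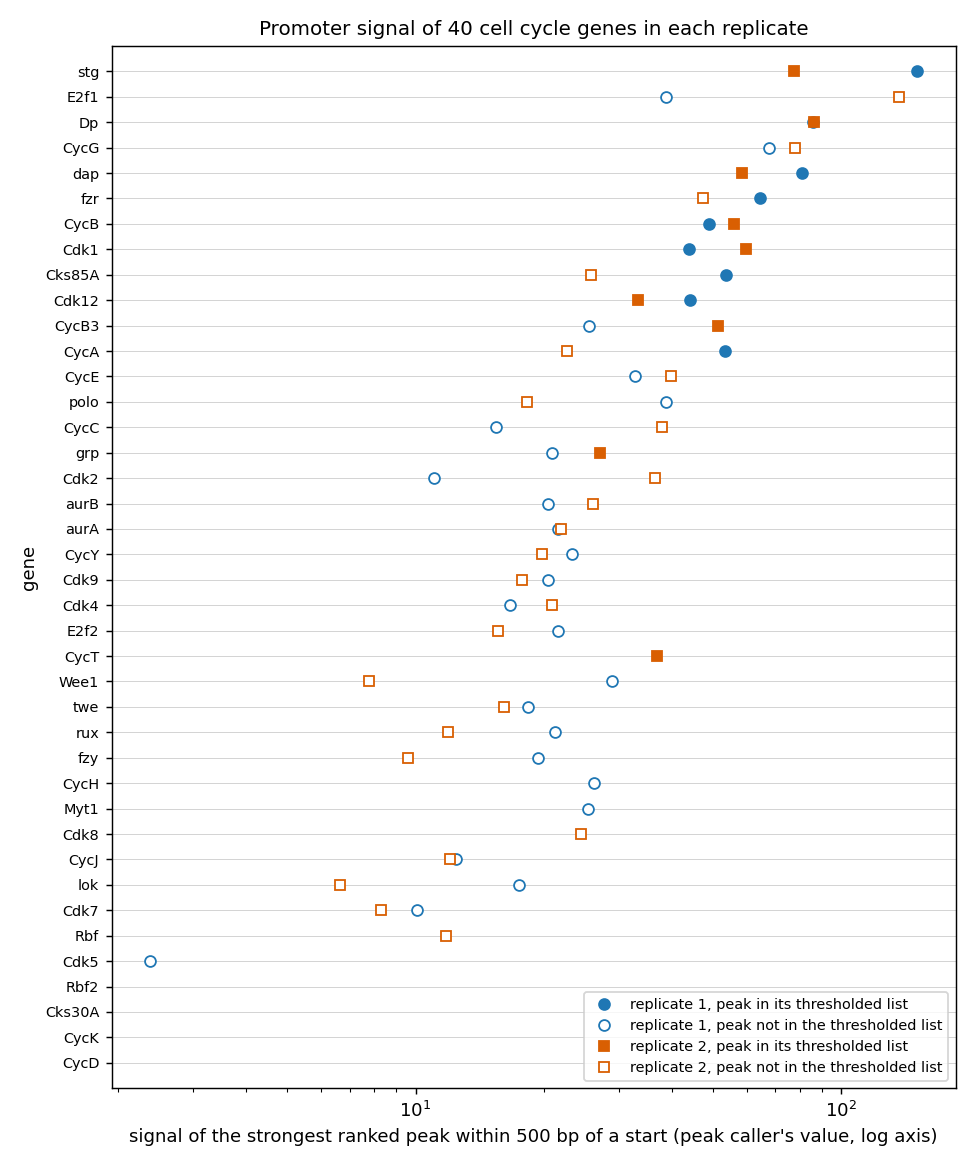
Signal (log axis) of the strongest ranked peak within 500 bp of a start of each of the 40 genes, in replicate 1 (circles) and replicate 2 (squares), filled where that peak is in the replicate's thresholded list; a gene with no ranked peak in a replicate has no point. Stg and Dp are filled in both replicates, CycG is open at signals of 67.59 and 77.87 and E2f1 in replicate 2 at 137.1, and CycD, CycK, Cks30A and Rbf2 have no points.

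In the E2F and retinoblastoma group, E2f1 and Dp had promoter summits, and E2f2 and Rbf had summits within 2 kb. Dp encodes the shared partner of both E2F proteins and had 3 promoter summits, the most of any listed gene. The first lay 40 bp upstream of its first start (2R, 13222225 to 13222560; pooled signal 156.9), with 83.61 and 86.41 in replicates 1 and 2 (mean 85.01 ± 1.98, SD, n = 2). The start of Fsn also lay within 500 bp of it. The other summits, of signal 153.0 and 117.2, lay 379 and 189 bp from starts of Dp inside the gene, and both replicate lists contained all 3.

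E2f1, the activating E2F, spans 40568 bp and had 4 conservative summits. The summit at its first start (3R, 21660687 to 21661022; 16 bp downstream) had a signal of 70.84, with 35.63 and 40.40 in replicates 1 and 2. Intronic summits had signals of 82.53 and 71.82, and the fourth, of 90.54, lay 344 bp from a start of Archease. A stronger peak at a later start of E2f1 (3R, 21632934 to 21633269; 29 bp from it) was in none of the 4 thresholded lists. Its signal was 139.3 in the ranked list of the replicate pair, rank 1064, with an IDR of 0.00158. The signal there was 137.1 in replicate 2 and 35.23 in replicate 1. A peak past the far end of the gene (3R, 21619283 to 21619366) of signal 235.3 and IDR 2.19e-05 was likewise absent. Of the ranked peaks of the replicate pair at or under an IDR of 0.01, 195 of 4397 (4.43%) were absent from the conservative list, and E2f1 and CycG were the only listed genes with such peaks in or within 2 kb, in any of the 4 lists. The file notes name a further input for the thresholded lists that they do not name for the ranked ones, and its part was not tested.

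E2f2, the repressing E2F, had a conservative summit 1900 bp upstream, 38 bp from a start of Coq3 (signal 108.8), and its own strongest ranked promoter signals were 21.60 and 15.62. Rbf, the main fly retinoblastoma gene, had 1 summit past its end (X, 796340 to 796675; signal 68.69) at no protein-coding start, with 53.16 and 27.22 in replicates 1 and 2. Its relative Rbf2 had no summit in or within 2 kb in any thresholded list and no ranked promoter peak.

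The checkpoint and inhibitory kinases had 0 of 4 genes with a promoter summit in the conservative and pooled lists, beside 16.8% and 21.2% of all genes. In the list of replicate 2 they had 1 of 4, grp, beside 17.2%. Grapes (grp), the fly Chk1, had an intronic conservative peak (2L, 16684600 to 16684935) of signal 107.9, 622 bp upstream of an internal start. It was in both replicate lists, with 74.62 and 39.60. The grp promoter peak of replicate 2 was weak (27.13, IDR 0.00800; 20.90 in replicate 1). Loki (lok), the fly Chk2, and the Cdk1-inhibiting kinases Wee1 and Myt1 had none, with strongest ranked signals between 6.65 and 28.99 in the replicates that had a peak.

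The 29 conservative peaks in or within 2 kb of the 40 genes fell into 3 kinds. There were 9 within 500 bp of a listed gene's own start, 11 within 500 bp of another gene's start only, and 9 at no protein-coding start, of which 5 were intronic. Of the 11 listed genes with a summit nearby but none at their own start, 7 had every summit at another gene's start, namely CycY, Cdk1, Cdk8, polo, aurB, twe and E2f2. Among all 1700 genes of that kind the share was 59.5%, so neighbouring promoters made up most of these cases in both sets. Among the 7 genes with their own promoter summit, 1 (Dp) shared a summit with another gene's start, beside 46.6% of the 2350 genes with a promoter summit.

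**Figure D4:**
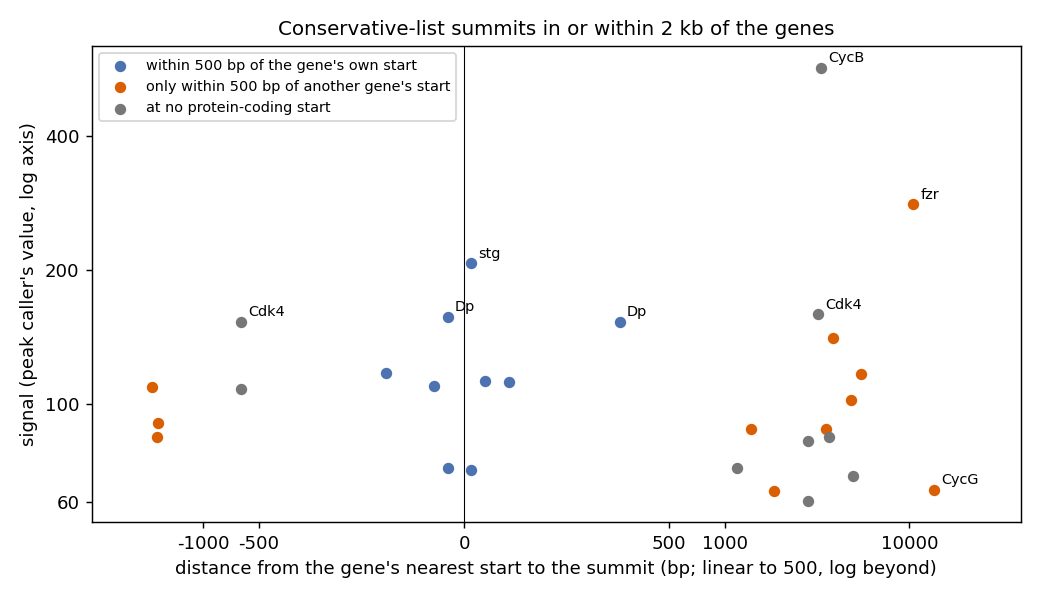
Conservative-list summits in or within 2 kb of the 40 genes, by distance from the gene's nearest start (bp, positive downstream, linear to 500 and log beyond) and signal (log axis), coloured by the starts they lie at. The 9 summits at own starts have signals from 70.84 to 207.0, and the highest points are the CycB peak past the gene's end at 570.1 and the fzr peak near CG3009 at 280.9.

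Replicate support varied among the 9 promoter peaks of the listed genes. Of these, 6 were in both replicate lists, beside 52.0% of the 2159 promoter peaks of all genes. The fzr peak was in the list of replicate 1 only, that of E2f1 in replicate 2 only and that of CycE in neither. The signal was higher in replicate 1 at 4 of the 9, beside 52.1% of the 1990 promoter peaks of all genes with a ranked peak in both replicates. Their median pooled signal was 112.2, and that of all promoter peaks 98.94. Among the 24 genes with no promoter summit in any thresholded list, 18 had a ranked one in the pooled reads, of signal 2.835 at Cdk5 to 132.1 at CycG and median 28.26. Without CycG the highest was 57.16, at CycC, so that apart from CycG these genes overlapped only the weaker of the 16 others, whose signals ran from 37.60 to 207.0. The threshold itself favours peaks of high rank, so this separation is in part by construction.

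Within 100 bp of the 9 promoter summits, CAGCTG occurred in 4 windows, 1 each at Dp, E2f1, fzr and stg, beside 15.4% of the windows of all promoter peaks. The CAGCTG marked above for fzr and for the first start of E2f1 lies outside these windows, so the matches counted there are others. GAGAGAG occurred in 2, at CycE and dap (9.36% of all). None held TATCGATA, the element bound by DREF, which is known to activate many replication and cell cycle genes (5.47% of all), or any of the E2F forms TTTCCCGC, TTTGGCGC, TTTCGCGC and TTTGCCGC (5.19% of all). In the 150 bases before the first start of each gene, TATCGATA occurred at CycA, CycT, Cdk2, Cdk9 and Rbf2, 5 of 40, beside 6.78% of all genes, and an E2F form at stg alone (3.61% of all). CAGCTG occurred in these bases at 6 of 40 genes, CycC, Cdk5, Cdk9, fzr, E2f1 and Dp, beside 9.68% of all genes. Matches were counted on both strands and describe letters only.

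Other genes of the same processes gave 17 of 73 (23.3%) with a conservative promoter summit and 22 (30.1%) in the pooled list, beside the same 16.8% and 21.2%. Phosphatases of mitotic entry and exit gave 4 of 8, led by the PP2A catalytic gene mts (signal 198.2, shared with a start of Rack1) and Pp1-87B (81.21). Ubiquitin ligase genes of the SCF type and cyclin turnover gave 3 of 10, led by Fbxl4 (254.1, shared with Dus2) and slmb (67.14). The spindle assembly checkpoint gave 3 of 10, with BubR1 (124.7) and Bub3 (100.9) the strongest, and DNA damage checkpoint genes gave 3 of 11, with mei-41, the fly ATR (177.7, shared with TH1), and p53 (155.2). Chromosome passenger and condensin genes gave 2 of 8, SMC2 (123.4, shared with Ercc1) and Cap-D2, which shares the peak of Bub3. The APC/C itself gave 1 of 10, Cdc16 (165.1, shared with orb), the Myb-MuvB complex 1 of 7, mip40 (57.89, shared with Tab2), and cohesin and separase 0 of 9.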

How the data were processed

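The deposited files are peak lists from chromatin immunoprecipitation of 2 biological replicates on the dm6 assembly, per the file headers and notes. Neither the aligner, the peak caller nor the scale of the signal is given in the sources used here. Signal values are those the authors deposited for each peak. The deposited −log10 q-value of each peak was read but is not reported, and the IDR was taken from the deposited column of the global IDR in the ranked lists. Computed here, with Python 3.11.15 and NumPy 2.4.6: summits were placed on the protein-coding transcript starts of Ensembl release 115, whose start codons read ATG in the RefSeq sequence at 40 of 40 genes. A gene was counted with a summit within 500 bp of a start, or inside the gene and 2 kb around it. Beside a listed peak, a replicate's signal is that of its strongest ranked peak over the summit, and a gene's ranked promoter signal is that of its strongest ranked peak within 500 bp of a start. No test was run, since there is 1 group, and the lists of genes are set beside all 13968 genes. Assignment was tested on simulated data and recovered 200 of 200 promoter summits. Of 74 further pathway genes, 73 were matched by symbol. The members and lists were chosen with earlier results of these data known. All 40 genes are named, and of each pathway list the 2 with the strongest promoter peak. The fzr, E2f1 later start, CycG and Cdk1 sequences were chosen after their values were seen, and sequences end at the start, in place of the window around the summit that was planned. Alternatives were other windows, flanks, starts and lists, and single replicates.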

Additional observations from a re-analysis of the deposited data

How the results depend on the processing

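The 7 genes with a conservative promoter summit were the same 7 with a 250 bp window (beside 14.5% of all genes), with the first annotated start only (14.9%), with each summit given to the nearest start (13.5%), and with the ranked peaks of the replicate pair at or under an IDR of 0.01 (17.3%; added after the data were seen). With a 1000 bp window (19.3% of all genes), or any base of the peak in place of the summit (17.9%), Cdk4 and grp joined them (9 genes), and the stronger 50% of peaks kept 5 (10.3%). The pooled list gave 15 (21.2%). Leaving out a replicate gave 9 to 10 (13.5% and 17.2%), but not all of the 7 stayed. CycE and fzr were lost without replicate 1, and CycE and E2f1 without replicate 2. The lists of both replicates held 6 genes (beside 10.4% of all), an alternative also added after the data were seen. These were CycB, stg, dap and Dp, with Cdk1 and Cdk12, which the conservative list lacked. At Cdk12 the summits lay 58 bp from a start in replicate 1 and 232 bp in replicate 2. The count in or within 2 kb was 18, but 8 (beside 11.9% of all genes) without the flank and 10 (25.0%, beside 19.1%) in the stronger 50% of peaks; a smaller region and fewer peaks give fewer by construction. It was 18 with either replicate left out (beside 29.4% without replicate 1 and 24.4% without replicate 2), 25 with a 5 kb flank (40.2%) and 26 in the pooled list (35.7%). The 18 were not the same genes each time. Without replicate 1, CycE, Cdk8, polo and Rbf gave way to CycB3, CycT, Cdk5 and Cdk12. Without replicate 2, CycE, CycG, Cdk8 and twe gave way to CycA, CycH, Cdk12 and Cks85A. The 4 genes with a conservative promoter summit covered by peaks in the lists of both replicates, CycB, stg, dap and Dp, were also those with 50% overlap. All 14 signals recomputed with other windows were equal. For the 250 bp window this holds by construction, since each gene's strongest summit lay 16 to 110 bp from a start. No paired analysis was possible because there is only 1 group. Depth limits every statement of absence: a gene without a peak is one where none was detectable in these lists.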
